A study of Mus musculus with 57 samples.

Results

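The genes described here encode the proteins of the small nuclear ribonucleoprotein particles (snRNPs) and of the core of the spliceosome, measured in single mouse embryos of 3 lines that carry alleles of Taf5, Taf12 or Taf13. They were taken from the expression table by symbol: Lsm, Snrp, Sf3a, Sf3b and Prpf genes with a number where the family uses one, leaving out pseudogene symbols and Snrpn. The rule found 47 of 56557 genes, of which 13 are Lsm, 12 Snrp, 9 Sf3 and 13 Prpf genes, and it left out 3 matching symbols. The set is wider than its name, because Lsm1 belongs to an mRNA decay complex, Lsm10 and Lsm11 to the U7 particle of histone RNA processing, and Lsm12, Lsm14a and Lsm14b to no spliceosomal particle. Lsm4, the gene that marks the set, was detected in every library, with at least 281 reads.

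The 57 embryos make up 14 groups and 5 sets of 1 line at 1 stage, and genotypes are the labels' MUT (mutant), HET (heterozygous) and WT (wild type). Taf5 blastocysts at embryonic day 3.5 (E3.5) comprised 4 MUT and 3 WT embryos. Taf12 blastocysts at E3.5 comprised 3 MUT, 5 HET and 5 WT embryos, and Taf12 outgrowths (OG) comprised 4 MUT, 3 HET and 4 WT embryos. An outgrowth is a blastocyst taken at E3.5 and grown alone in a dish, here for 72 h with 10% fetal bovine serum. Taf13 blastocysts at E3.5 comprised 3 MUT, 4 HET and 4 WT embryos, and Taf13 embryos at E6.5 comprised 2 MUT, 9 HET and 4 WT embryos. The series' design text calls the lines knockouts, the alleles themselves are not described in the labels, and no other treatment was given. Litters are not given, so a p-value measures the spread between these embryos.

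Splicing is carried out by snRNPs, each built on a small RNA. A ring of Sm proteins closes around the U1, U2, U4 and U5 RNAs, and a ring of the related LSm proteins binds the end of U6. U1 and U2 recognise the 5′ splice site and the branch point, SF3a and SF3b hold U2 on the branch point, and the U4/U6.U5 tri-snRNP brings the Prpf proteins that form and check the catalytic centre. The products of all 3 Taf genes are subunits of TFIID, which binds core promoters to start transcription by RNA polymerase II, and Taf12 also belongs to the coactivator SAGA.

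Depth, as reads recovered from the FPKM, was 7.82 to 12.09 M reads in libraries at E3.5, 4.57 to 12.59 M in OG and 18.55 to 21.66 M at E6.5. Taf5 was at 0 reads in all 4 Taf5 MUT embryos, against FPKM (fragments per kilobase and per 1 M reads, M for mega) of 51.9, 13.2 and 42 in Taf5 WT. The other targeted genes do not check the labels in this way: Taf12 in Taf12 MUT was not lower than in WT (log2 change 0.48, adjusted p = 0.229 at E3.5 and 1.17, adjusted p = 0.000489 in OG), and Taf13 in Taf13 MUT did not pass the test at E3.5 (−0.67, adjusted p = 0.552) or at E6.5 (−0.04, adjusted p = 0.956). Taf12 MUT and Taf13 MUT below therefore mean the libraries labelled so. Taf12 E3.5 MUT 1 stood apart at 11875 genes above 0 and 3.58% mitochondrial reads. Among the outgrowths, Taf12 OG MUT 3 had the 4.57 M reads, and the others had 9.54 M or more. Genes above 0 were 14640 to 17018 in OG MUT, 17314 to 17729 in HET and 17443 to 18634 in WT. Taf13 E6.5 WT 3 and HET 8 stood apart from the other WT and HET libraries in these genes, as described with the E6.5 values. FPKM levels of different genes were not set against each other. Levels are relative to the rest of a library's RNA, and in whole embryos fewer cells of a type and less RNA per cell cannot be told apart.

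Taken as a share of all reads, the 47 genes together gave 4589 ± 145 reads per M in Taf12 OG MUT (SD, n = 4), 6117 ± 128 in HET (n = 3) and 6058 ± 259 in WT (n = 4). The 4 MUT outgrowths, at 4391 to 4729, all lay below the 5784 to 6283 of WT. In Taf13 E6.5 the 2 MUT embryos gave 5523 and 6507 reads per M, against 7397 to 8739 in HET and 7759 to 8025 in WT. At E3.5 the shares overlapped in every line: 6801 to 7328 in Taf5 MUT against 6669 to 7107 in WT, 6731 to 7046 in Taf12 MUT against 6473 to 7379 in WT, and 7101 to 7192 in Taf13 MUT against 6779 to 7622 in WT. In OG all 4 gene families were lower in MUT than in every WT library. In E6.5 the Snrp and Lsm families were, while the Sf3 and Prpf families overlapped between MUT and WT.

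**Figure D1:**
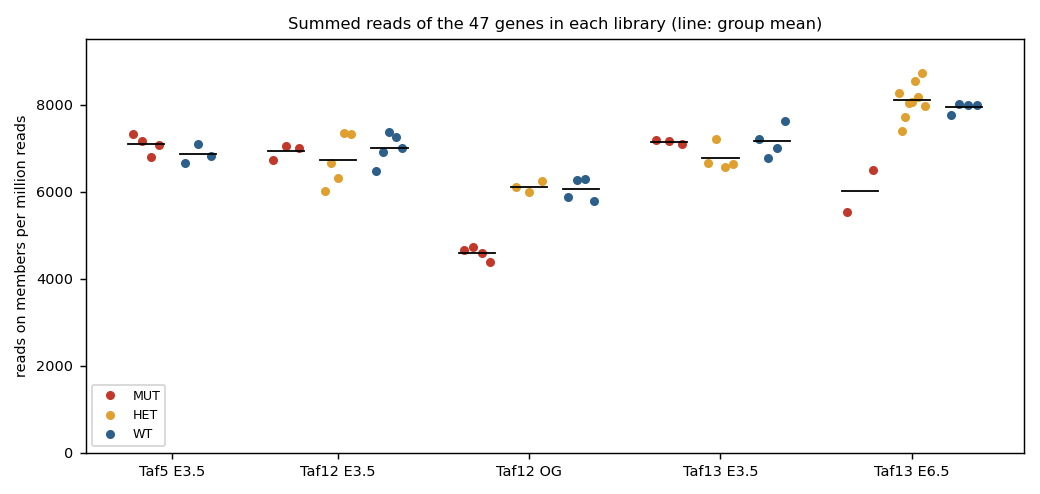
Reads of the 47 snRNP and splicing core genes per M reads of each library, by line, stage and genotype, with MUT left of HET and WT. Points are single embryos and bars group means. The Taf12 OG MUT points (4391 to 4729) and the Taf13 E6.5 MUT points (5523 and 6507) lie below all WT points of their stage, and the E3.5 groups overlap.

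Taf12 outgrowths held the most changes. MUT was compared with WT by limma on log2(FPKM + 1), and a gene counted as changed when its p, adjusted by Benjamini and Hochberg over all genes tested, was under 0.05. Of the 47 genes, all of which were tested, 19 were lower and 3 higher in Taf12 OG MUT, that is 40.4% and 6.38%. Over all 13068 genes tested in OG, 37.9% were called, 19.9% lower and 18% higher. The median log2 change was −0.355 over the 47 genes and −0.054 over all genes. FPKM ranges of MUT and WT did not overlap for 19 genes lower in MUT (18.4% of all genes tested) and for 5 genes higher in MUT (17% of all). The genes with ranges apart are not the same as those called. Sf3a3 and Prpf4b were called lower with ranges that overlap. Snrpf and Snrpert were apart on the lower side, and Prpf6 and Lsm14b on the higher side, without being called. In HET outgrowths limma called 0 of the 47 genes (0.0306% of all genes were called), with 0 at an unadjusted p under 0.05, and 0 called by voom on recovered reads. Over all genes, 571 of 13068 had an unadjusted limma p under 0.05.

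Among the LSm rings, 4 of 8 genes were lower in Taf12 OG MUT and the median change was −0.55. Lsm4 (ENSMUSG00000031848), which lies in both the nuclear U6 ring and the cytoplasmic decay ring, was at FPKM 202, 229, 194 and 198 in MUT, at 801, 745 and 813 in HET, and at 800, 911, 790 and 790 in WT. Every MUT outgrowth lay far below every HET and WT outgrowth, and the HET and WT ranges overlapped. The mean was 4-fold lower in MUT (log2 change −1.995 ± 0.09 SE, adjusted p = 6.81e-07), the smallest adjusted p of the 47 genes. Lsm2, a subunit of both rings, was at 154, 102, 144 and 92.9 in MUT, against 213, 218, 241 and 220 in WT (log2 change −0.88 ± 0.16 SE, adjusted p = 0.00186). Lsm3 was at 270, 246, 324 and 252 in MUT, against 477, 463, 461 and 389 in WT (−0.71 ± 0.11, adjusted p = 0.000793). For both, MUT and WT ranges were apart. Lsm6, also a subunit of both rings, was 5.88 to 8.77 in MUT against 13 to 15.8 in WT (−0.88 ± 0.16, adjusted p = 0.00191). The other ring subunits did not pass the test: Lsm5 had a change of −0.39, Lsm7 of −0.17 and Lsm8 of 0.23. Lsm1, which takes the place of Lsm8 in the cytoplasmic ring, had a change of 0.37 (adjusted p = 0.0551).

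The 7 Sm core genes were divided. Snrpd1, an Sm ring subunit, was at FPKM 618, 809, 547 and 756 in MUT outgrowths, at 1603, 1636 and 1804 in HET, and at 1529, 1597, 1687 and 1488 in WT. The highest MUT value was far under the lowest HET or WT value (log2 change −1.22 ± 0.12 SE, adjusted p = 6.74e-05). Snrpe was at 67.1, 71.7, 63.4 and 76.7 in MUT, against 131, 110, 125 and 105 in WT (−0.75 ± 0.11, adjusted p = 0.000651). Snrpert is a copy related to it, so the division of reads between them is uncertain. Snrpert itself had a change of −0.39 that did not pass. It was at FPKM 0.62 to 0.723 in MUT and 0.996 to 1.29 in WT, levels where the added pseudocount of 1 understates changes. The ratio of mean FPKM in MUT to WT was 0.563 for Snrpert and 0.591 for Snrpe. Snrpb, Snrpd3 and Snrpg had changes of 0.03, −0.19 and 0.02, and Snrpd2 of 0.39, none of them past the test. Snrpb values carry the same uncertainty, since Snrpn encodes a nearly identical protein. Snrpf, at FPKM under 2 in every outgrowth, had a change of −0.56 (adjusted p = 0.0557), and the added pseudocount understates changes at such levels. The median over the Sm genes was −0.19.

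Of the 4 proteins specific to U1 or U2, 2 were lower in Taf12 OG MUT. Snrpa1 (ENSMUSG00000030512), the U2-A′ protein, was at FPKM 211, 145, 144 and 118 in MUT, at 424, 403 and 444 in HET, and at 404, 421, 466 and 438 in WT. The MUT range lay below the HET and WT ranges, which overlapped each other (log2 change −1.51 ± 0.16 SE, adjusted p = 7.66e-05). Snrpa, the U1-A protein, was at 76.7, 86.4, 69.3 and 85.7 in MUT, against 120, 124, 120 and 119 in WT (−0.60 ± 0.12, adjusted p = 0.00248). The changes of Snrpc (U1-C) and Snrpb2 (U2-B″), −0.17 and −0.08, did not pass.

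The SF3 genes moved in both directions. Sf3a1, an SF3a subunit, was at FPKM 48.2, 35.5, 20.4 and 27 in MUT, against 73.5, 90.4, 85.1 and 74.1 in WT (log2 change −1.34 ± 0.22 SE, adjusted p = 0.00107). Sf3b2, an SF3b subunit, was at 1141, 1381, 1122 and 1107 in MUT, at 2389, 2424 and 2649 in HET, and at 2391, 2889, 2382 and 2403 in WT. All MUT values lay below all HET and WT values (−1.08 ± 0.10, adjusted p = 4.32e-05). Sf3b3, another SF3b subunit, was at 315, 359, 203 and 328 in MUT, against 483, 559, 526 and 573 in WT (−0.86 ± 0.16, adjusted p = 0.00219). Sf3b5 and Sf3b6, the small subunits of SF3b, were higher in MUT. Sf3b5 was at 1744, 1701, 1839 and 1900 in MUT, at 989, 983 and 1077 in HET, and at 1066, 1139, 1164 and 1108 in WT (0.68 ± 0.08, adjusted p = 0.000117). Sf3b6, which contacts the branch point, was at 144, 179, 184 and 150 in MUT, against 110, 99.2, 115 and 103 in WT (0.61 ± 0.12, adjusted p = 0.00244). For both, every MUT outgrowth exceeded every WT outgrowth. Sf3b4 (−0.48, adjusted p = 0.0156) and Sf3a3 (−0.58, adjusted p = 0.049) were lower as well, and Sf3a2 (−0.19) and Sf3b1 (−0.19) did not pass.

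Among the Prpf genes, 6 were lower and none was called higher in Taf12 OG MUT. Prpf19, the ubiquitin ligase of the complex that activates the spliceosome, was at FPKM 645, 540, 790 and 616 in MUT, against 1156, 1193, 1089 and 1121 in WT (log2 change −0.83 ± 0.11 SE, adjusted p = 0.00036). Prpf8, the scaffold of the catalytic centre in U5, was at 29.1, 41.5, 32.5 and 45.4 in MUT, against 61.8, 65.2, 56.5 and 74.6 in WT (−0.80 ± 0.16, adjusted p = 0.00285). Prpf38b was at 9.83, 13.4, 17.8 and 15.1 in MUT, against 26.6, 25.4, 22.9 and 24.5 in WT (−0.81 ± 0.17, adjusted p = 0.00438). In these 3 genes MUT and WT did not overlap. The others called were Prpf38a (−0.55, adjusted p = 0.00787), the kinase Prpf4b (−0.43, adjusted p = 0.0362) and the U4 protein Prpf31 (−0.355, adjusted p = 0.0375). Prpf4, a U4/U6 protein, had a change of −0.465 (adjusted p = 0.0564). Prpf3, Prpf6, Prpf18 and Prpf39 had changes of −0.26 to 0.36, and Prpf40b, at FPKM 0.143 to 4.62 in MUT and 1.17 to 5.14 in WT, one of −1.003, none past the test.

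Outside the spliceosome, Lsm10 was higher. It was at FPKM 95.6, 104, 80.6 and 81 in Taf12 OG MUT, at 35.2, 38.2 and 28.8 in HET, and at 39.2, 43.4, 58.8 and 34.6 in WT. Every MUT value exceeded every other value (log2 change 1.04 ± 0.18 SE, adjusted p = 0.00126). Lsm11, its partner in the U7 ring, overlapped between the groups at 6.41 to 17.7 in MUT and 7.43 to 22.9 in WT (−0.32, adjusted p = 0.532). Lsm12, Lsm14a and Lsm14b had changes of 0.09, 0.08 and 0.55, not past the test. Lsm14b was at FPKM 0.836 to 2.71 in MUT and 0.384 to 0.802 in WT, without overlap. The ratio of its mean FPKM in MUT to WT was 2.28, and the added pseudocount understates changes at such levels.

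**Figure D2:**
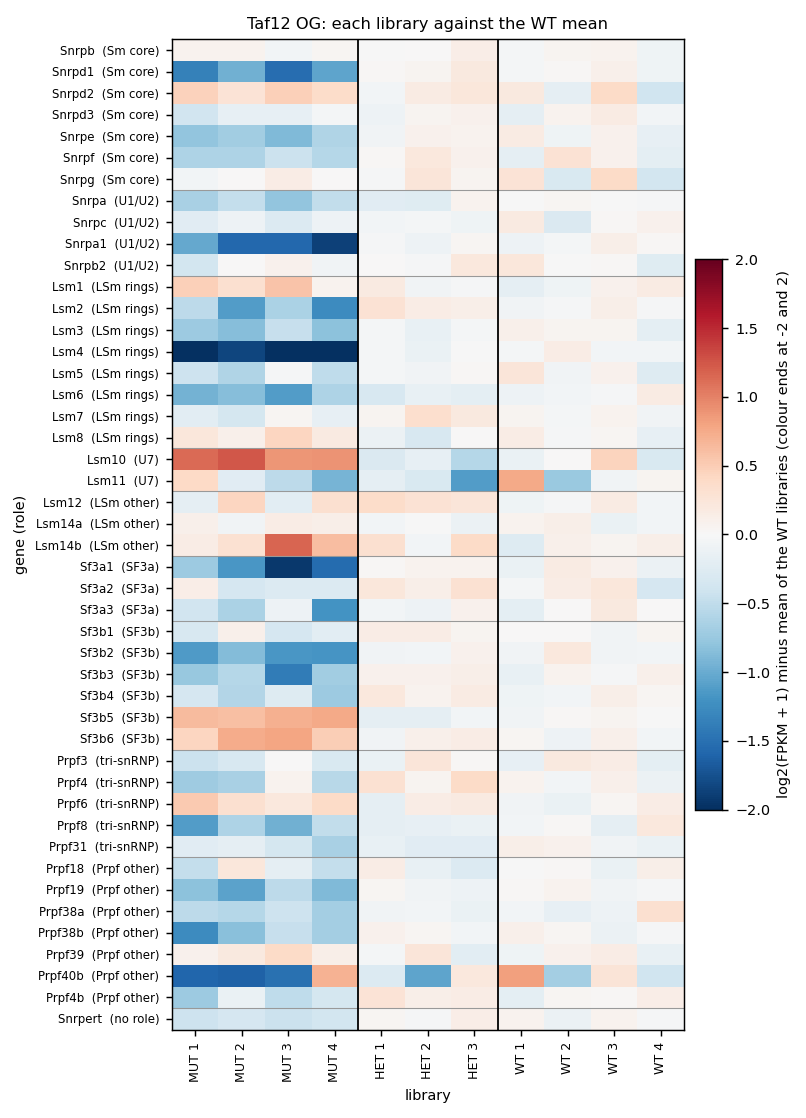
The log2 level of 46 of the 47 genes in every Taf12 outgrowth relative to that gene's WT mean, genes in lines and libraries in columns with MUT left of HET and WT, and colours limited to −2 and 2. Lsm4 (log2 change −1.995), Snrpa1 (−1.51) and Sf3a1 (−1.34) are low in all MUT columns, Lsm10 (1.04) and Sf3b5 (0.68) are high, and the HET columns look like the WT columns.

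Levels of cell type markers differed beside these values. Summed reads of the 8 trophectoderm markers were 29849 to 38213 per M in Taf12 OG MUT, 8730 to 10394 in HET and 6686 to 11855 in WT. By limma 3 of these 8 were higher and 1 lower in MUT, and 4 had changes below 0 (median log2 change 0.11). The keratin genes Krt8 (2.37, adjusted p = 0.000206) and Krt18 (2.11, adjusted p = 0.00011) were higher and Tead4 was lower (−1.07, adjusted p = 0.00456). The 8 epiblast markers summed to 287 to 419 in MUT, with Sox2, Fgf4 and Tdgf1 at 0, against 445 to 609 in WT, with Nanog at 0, and of the 4 that were tested 1 was lower, Utf1 (−2.15, adjusted p = 6.17e-05). The 8 primitive endoderm markers summed to 87.7 to 962 in MUT and 247 to 1004 in WT, sums that overlap, but all 8 had changes below 0 (median −1.89) and 4 were called lower, among them Amn (−4.31, adjusted p = 0.000627). The 7 decidua and blood markers in the table summed to 175 to 241 in MUT, with 5 of them at 0, and 36.7 to 77.3 in WT, with 4 at 0. Of the 2 that were tested, Cryab was higher (2.97, adjusted p = 0.000112) and Des lower (−2.19, adjusted p = 0.017). Mitochondrial reads were 1.45 to 2.16% in MUT and 0.95 to 1.33% in WT. The part of cell makeup and RNA quality in the changes of the splicing genes was not tested.

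Other genes of the pathway were counted from lists. Each count is to be read beside the shares over all genes tested in Taf12 OG MUT, 19.9% lower and 18% higher. Of 25 other U snRNP proteins, 10 were lower and 3 higher in Taf12 OG MUT (median −0.40). Eftud2, the U5 GTPase that drives unwinding, averaged FPKM 337 ± 42.9 in MUT and 579 ± 54.6 in WT (SD, n = 4 each; log2 change −0.78, adjusted p = 0.000602). The U11/U12 proteins Snrnp35 and Zmat5 went opposite ways, with Snrnp35 at 204 ± 30.1 in MUT and 462 ± 39 in WT (−1.18, adjusted p = 7.59e-05) and Zmat5 at 171 ± 17.2 in MUT and 84.2 ± 6.43 in WT (1.01, adjusted p = 0.000263). Among 14 tested genes of snRNP assembly and import, 5 were lower and 1 higher (median −0.33). Prmt5, which methylates Sm proteins before the ring forms, averaged 934 ± 157 in MUT and 2660 ± 118 in WT (−1.52, adjusted p = 2.64e-05). Smn1, whose complex loads the Sm ring, averaged 69 ± 11.2 in MUT and 113 ± 13.1 in WT (−0.70, adjusted p = 0.00277), and Gemin5, its RNA-reading subunit, 14.4 ± 1.98 in MUT and 28.3 ± 4.22 in WT (−0.93, adjusted p = 0.00116). Of 20 Prp19 complex and catalytic step factors, 4 were lower and 2 higher (median −0.10). SR proteins, which bind exonic enhancers, had 7 of 12 genes lower (median −0.49), with Srsf1 at 921 ± 144 in MUT and 2050 ± 260 in WT (−1.16, adjusted p = 0.000211). The hnRNP proteins, which coat nascent RNA, had 15 of 20 lower (median −0.69), with Hnrnpa1 at 312 ± 90.7 in MUT and 1310 ± 263 in WT (−2.09, adjusted p = 6.27e-05).

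Promoters of 4 genes the results turn on are shown from RefSeq (build GRCm38.p6, not the build of the expression table), since these lines concern factors of promoter recognition. Each window runs from 250 bases before to 50 after the annotated start, 5′ to 3′ on the gene's strand. Capitals mark matches, on either strand, to the TATA box core (TATAAA), the CCAAT box core (CCAAT), the GC box core (GGGCGG), the ETS core (CCGGAAG) or the NRF1 site. Snrpa1 and Sf3b2 were lower in Taf12 OG MUT and are a U2 and an SF3b gene, Snrpe is the Sm gene with a window among those lower, and Lsm11 is the gene called at E3.5.
Snrpa1, chr7:66060086-66060385, plus strand: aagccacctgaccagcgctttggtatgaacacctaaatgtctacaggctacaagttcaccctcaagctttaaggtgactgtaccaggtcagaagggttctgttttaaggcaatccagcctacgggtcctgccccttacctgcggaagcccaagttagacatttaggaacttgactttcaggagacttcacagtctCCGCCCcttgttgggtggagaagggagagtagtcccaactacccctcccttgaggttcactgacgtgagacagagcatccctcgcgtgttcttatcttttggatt
Sf3b2, chr19:5295408-5295707, minus strand: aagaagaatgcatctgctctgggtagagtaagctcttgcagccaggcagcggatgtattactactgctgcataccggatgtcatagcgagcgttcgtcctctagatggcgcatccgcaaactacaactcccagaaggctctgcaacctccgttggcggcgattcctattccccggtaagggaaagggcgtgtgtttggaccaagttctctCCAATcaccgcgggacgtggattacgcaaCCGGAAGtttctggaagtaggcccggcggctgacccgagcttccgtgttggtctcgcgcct
Snrpe, chr1:133610231-133610530, minus strand: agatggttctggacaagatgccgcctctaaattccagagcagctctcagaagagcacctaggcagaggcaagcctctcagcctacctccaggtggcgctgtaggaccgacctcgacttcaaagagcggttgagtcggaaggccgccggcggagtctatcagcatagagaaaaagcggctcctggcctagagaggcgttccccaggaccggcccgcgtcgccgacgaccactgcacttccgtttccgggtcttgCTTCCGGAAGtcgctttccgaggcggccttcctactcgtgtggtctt
Lsm11, chr11:45944886-45945185, minus strand: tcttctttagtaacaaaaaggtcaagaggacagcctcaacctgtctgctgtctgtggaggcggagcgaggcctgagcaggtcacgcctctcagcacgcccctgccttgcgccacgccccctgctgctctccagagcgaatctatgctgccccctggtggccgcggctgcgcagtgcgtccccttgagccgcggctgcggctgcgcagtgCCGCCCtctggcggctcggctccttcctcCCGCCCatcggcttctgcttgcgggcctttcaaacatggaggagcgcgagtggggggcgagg
None of the 4 windows holds TATAAA. Snrpe holds CCGGAAG on both strands in overlapping letters, Sf3b2 holds CCAAT and CCGGAAG, Snrpa1 holds 1 GGGCGG match and Lsm11 holds 2. Of the 47 genes, 37 had a window. TATAAA was in 2 of these 37 first windows (5.41%, against 14.2% of the first windows of 27025 genes), CCAAT in 16 (43.2%, against 37.9%), GGGCGG in 24 (64.9%, against 35.9%) and CCGGAAG in 14 (37.8%, against 9.12%). The NRF1 site was in 0 of the 37, against 0.977% of all. The 27025 genes were taken without regard to their expression in these embryos, and called and uncalled genes of the 47 were not set apart. Whether the shares differ from those of other expressed genes, or go with the changes in MUT, was not tested. A match is a match of letters and not a site of binding.

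**Figure D3:**
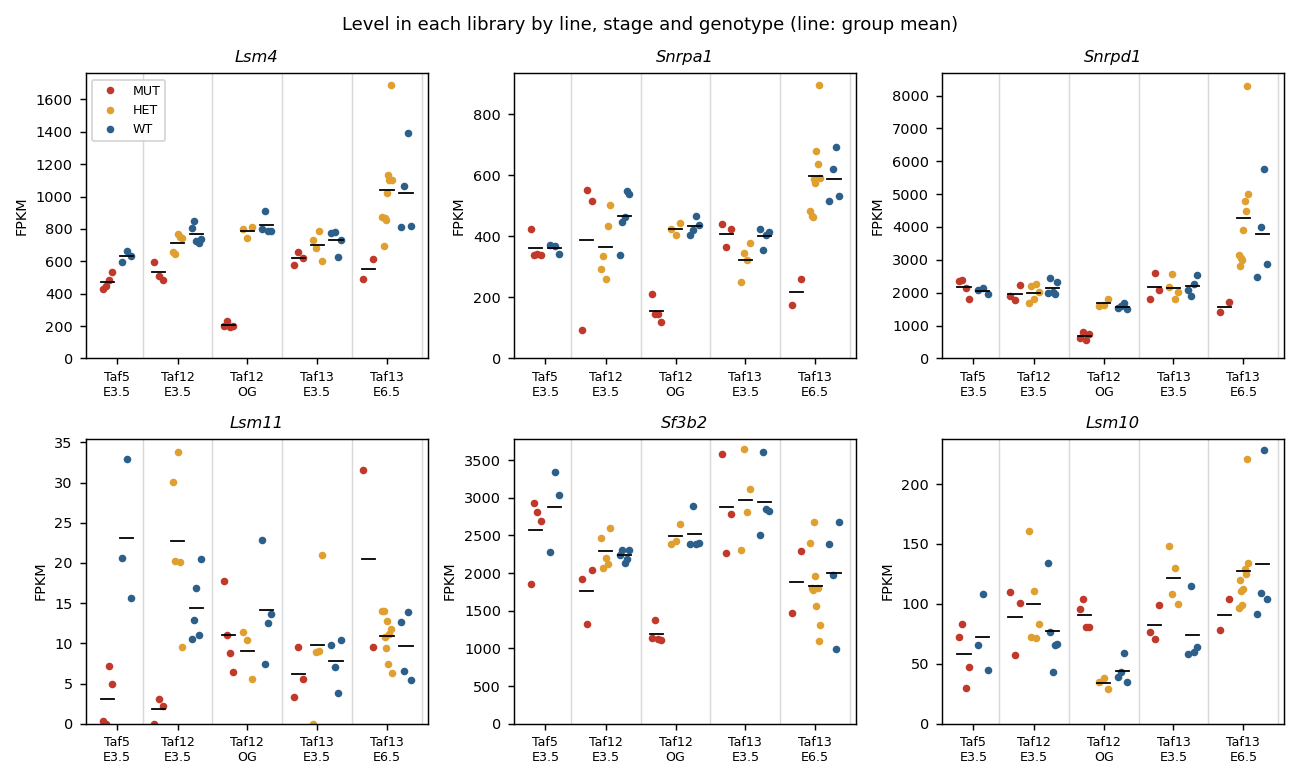
FPKM of Lsm4, Snrpa1, Snrpd1, Lsm11, Sf3b2 and Lsm10 in every embryo, by line, stage and genotype, with MUT left of HET and WT. Points are embryos and bars group means. Lsm4 in Taf12 OG MUT sits at 194 to 229, below HET at 745 to 813 and WT at 790 to 911.

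In Taf13 E6.5 embryos, 5 of the 47 genes (10.6%) were lower in MUT and none was called higher. Over the 14417 genes tested, 13% were called, 6.4% lower and 6.64% higher. The median change of the 47 genes was −0.459, against 0.027 over all genes. MUT and WT ranges did not overlap for 23 genes lower in MUT and for 0 higher, against 17.7% and 18.8% of all genes tested. With only 2 MUT embryos, the count depended on single libraries: it was 0 without MUT 1, 6 without MUT 2, 2 without WT 2 and 9 without HET 8. The count over all genes moved too, from 1880 to 554 without MUT 1 and to 1238 without WT 2.

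Snrpa1 had the smallest adjusted p. It was at FPKM 174 and 260 in Taf13 E6.5 MUT, between 463 and 894 in HET (median 586), and at 514, 619, 692 and 531 in WT. Both MUT embryos lay well below all 13 others (log2 change −1.45 ± 0.25 SE, adjusted p = 0.00193), and without MUT 1 the adjusted p was 0.0568. Snrpb2, the U2-B″ protein that binds beside it on U2 RNA, was at 57 and 62.6 in MUT, between 94.3 and 193 in HET (median 121), and at 97.8, 130, 172 and 106 in WT (−1.035 ± 0.29, adjusted p = 0.0276). Its MUT values also lay below all others, and the call was lost without WT 2, WT 3, MUT 1 or MUT 2 (adjusted p of 0.0505 to 0.21), with no filter (0.0593) and with the replicate block (0.0831). Snrpa and Snrpc were below 0 with changes of −0.43 and −0.435, and did not pass.

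All 8 LSm ring genes had changes below 0 in Taf13 E6.5 MUT, with a median of −0.88, and 2 passed. Lsm2 was at FPKM 214 and 249 in MUT and at 334, 387, 404 and 393 in WT (log2 change −0.71 ± 0.16 SE, adjusted p = 0.0107). Lsm6 was at 15.7 and 18 in MUT and at 25.5, 34.1, 48.8 and 28.9 in WT (−0.95 ± 0.26, adjusted p = 0.0283). In both genes the MUT embryos lay below every HET and WT embryo. The Lsm2 call was lost without MUT 1 (adjusted p = 0.142) and with the replicate block (0.0968). The Lsm6 call was lost without WT 2 (0.0605), MUT 1 (0.227) or MUT 2 (0.0633), with no filter (0.0558) and with the block (0.11). Lsm4 was at 492 and 614 in MUT, between 696 and 1687 in HET (median 1024), and at 810, 1063, 1391 and 817 in WT. It too lay below all others in MUT, but did not pass (−0.85 ± 0.29, adjusted p = 0.0678), nor did Lsm3 (−1.05, adjusted p = 0.0539).

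The Sm genes had a median change of −0.55 and none passed, Snrpd1 being nearest. Snrpd1 was at FPKM 1426 and 1728 in Taf13 E6.5 MUT and at 2469, 3985, 5769 and 2881 in WT (log2 change −1.19 ± 0.39 SE, adjusted p = 0.0597). The WT spread was wide and still did not reach the MUT values. In SF3a, Sf3a3 was lower, at 110 and 172 in MUT and at 205, 217, 185 and 229 in WT (−0.59 ± 0.185, adjusted p = 0.0472). This call held in 11 of 24 alternatives. Without MUT 1 the change was −0.275 (adjusted p = 0.563), and the call was also lost without any 1 of WT 1, 2 or 4 or HET 1, 2, 3, 5, 6, 7 or 9 (adjusted p of 0.0527 to 0.0982), with no filter (0.0781) and with the replicate block (0.18). The SF3b genes had a median of −0.10, the tri-snRNP Prpf genes of −0.05 and the other Prpf genes of −0.15, with none past the test. Sf3b2, Sf3b3 and Prpf8, all lower in Taf12 OG MUT, had changes of −0.04, 0.05 and 0.73 here, and of −0.34, −0.48 and 0.22 without WT 3 and HET 8, none past the test either way. Lsm10 had a change of −0.46 (adjusted p = 0.406) and Lsm11 of 0.89 (adjusted p = 0.197). In HET embryos at E6.5 limma called 0 of the 47 genes (0% of all genes were called), with 0 at an unadjusted p under 0.05 and 0 called by voom. Over all genes, 174 of 14417 had an unadjusted limma p under 0.05.

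Taf13 E6.5 WT 3 and HET 8 differed from the other 11 WT and HET embryos in most of these genes. Both lay above the range of the other 11 in 20 of the 47 genes and below it in 16. The share of all genes in which they did so was not counted, so this is not shown to be particular to these 47 genes. Snrpd1 was at FPKM 5769 in WT 3 and 8291 in HET 8, against 2469 to 4997 in the other 11. Lsm7 was at 262 and 350 in the same libraries, against 90.8 to 187. Prpf8 was at 10.3 and 15.9, against 27.3 to 63.4, and Sf3b3 at 121 and 177, against 322 to 681. Among the genes above were 7 of the 8 LSm ring genes and 5 of the 7 Sm genes, and among those below were all 3 SF3a genes and 4 of the 6 SF3b genes. The other SF3b genes, Sf3b5 (3381 and 4009, against 1770 to 2633) and Sf3b6 (355 and 402, against 145 to 292), lay above. The depth of these libraries (21.01 and 19.68 M reads) and their mitochondrial reads (0.35 and 0.34%) lay within the range of the other 11. With both left out, 10 genes were lower in MUT: Snrpa1 (−1.37, adjusted p = 0.000695), Lsm2, Prpf39, Lsm6, Snrpb2, Sf3a3, Snrpd1 (−0.96, adjusted p = 0.0284), Lsm3, Lsm4 (−0.69, adjusted p = 0.0385) and Prpf3. That alternative was chosen after the values were seen. The share of all genes called in it is not given here, so the higher count is not shown to be particular to these 47 genes.

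**Figure D4:**
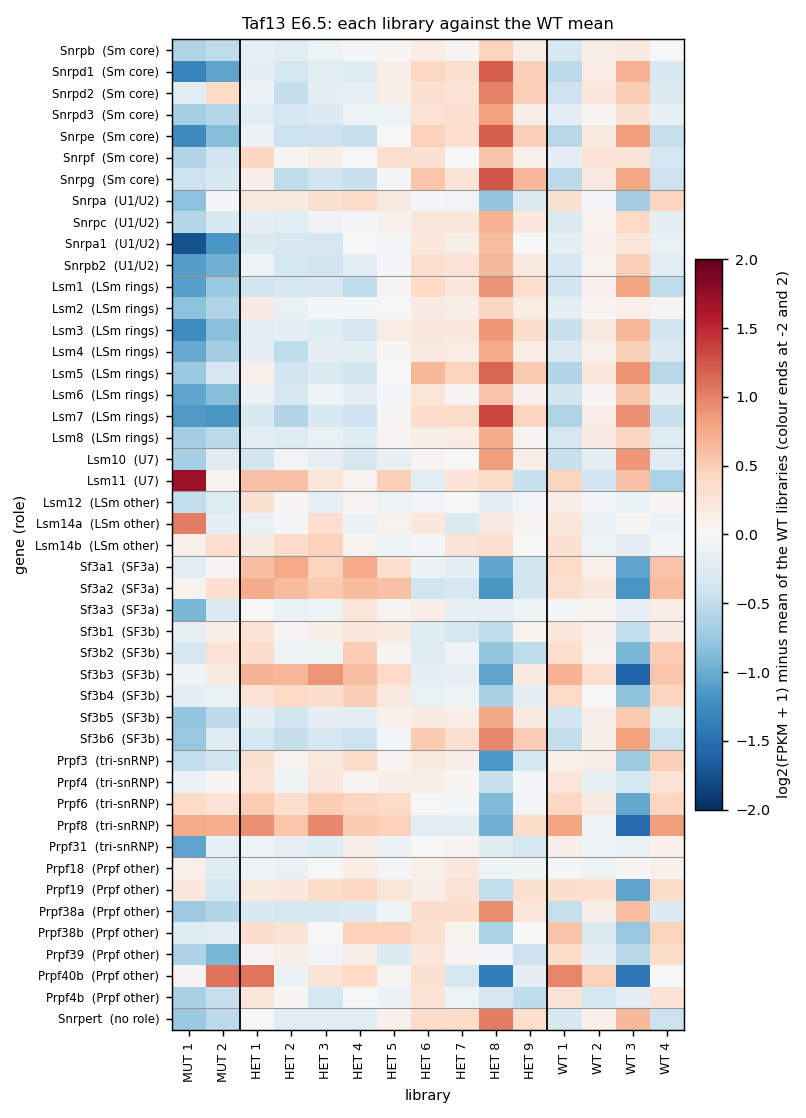
The log2 level of 46 of the 47 genes in every Taf13 E6.5 embryo relative to that gene's WT mean, genes in lines and libraries in columns with MUT left of HET and WT, and colours limited to −2 and 2. Snrpa1 (log2 change −1.45) and the LSm ring genes (median −0.88) are low in both MUT columns, and the WT 3 and HET 8 columns differ from the other WT and HET columns.

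The markers moved at E6.5 too. The 8 epiblast markers summed to 49.1 and 210 reads per M in Taf13 E6.5 MUT, with Pou5f1 and Fgf4 at 0, against 714 to 1278 in HET and 832 to 1354 in WT, with none at 0. Of the 7 that were tested, 6 were called lower in MUT (median log2 change −3.23). Primitive endoderm markers summed to 2317 and 4346 in MUT, against 1227 to 2828 in WT, and 4 of 8 were called higher and 0 lower (median 1.45). Trophectoderm markers summed to 1661 and 3353 in MUT, against 1697 to 2437 in WT, with 0 of 8 higher and 2 lower, Eomes (−2.66, adjusted p = 0.00253) and Elf5 (−2.13, adjusted p = 0.0188), and a median of −0.03. The 7 decidua and blood markers summed to 1081 and 2069 in MUT, against 57.1 to 1527 in WT. Of the 6 that were tested, 3 were called higher (Des, Pgr and Hand2), 0 lower and 0 had a change below 0 (median 2.87). None of these 3 lists held a marker that was at 0 in every MUT or every WT library. Mitochondrial reads were 1.11% and 0.38% in MUT and 0.11 to 0.53% in WT. Their part in the lower splicing genes was not tested.

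Over all genes tested in Taf13 E6.5 MUT, 6.4% were lower and 6.64% higher, and the counts from the lists are to be read beside these shares. Of the lists, 4 of 15 tested assembly genes were lower in Taf13 E6.5 MUT (median −0.56). Smn1 averaged FPKM 73.6 ± 7.44 in MUT (SD, n = 2) and 142 ± 6.33 in WT (n = 4; log2 change −0.94, adjusted p = 0.000726). Of 25 other U snRNP proteins, 3 were lower (median −0.16). U2af1, which reads the 3′ splice site, averaged 136 ± 35.3 in MUT and 292 ± 9.76 in WT (−1.12, adjusted p = 0.000659), and Phf5a, an SF3b subunit outside the symbol rule, 102 ± 7.78 in MUT and 215 ± 20.4 in WT (−1.07, adjusted p = 0.000681). Zmat5, higher in Taf12 OG MUT, was lower here at 28.9 ± 0.693 in MUT and 86.5 ± 18.9 in WT (−1.53, adjusted p = 0.00175). SR proteins had 5 of 12 lower (median −0.61), hnRNP proteins 3 of 20 (median −0.17) and Prp19 complex and catalytic step factors 2 of 20 (median −0.23), with none of these lists' genes called higher.

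By limma few of these genes were called in the blastocysts. In Taf12 E3.5 MUT, 1 of the 47 genes was called (2.13%, against 1.44% of 12751 genes tested), and it was Lsm11 (ENSMUSG00000044847), a U7 ring subunit. It was at FPKM 0, 3.11 and 2.26 in MUT, at 30.1, 20.2, 33.8, 20.1 and 9.49 in HET, and at 10.6, 12.9, 16.9, 11 and 20.5 in WT. No MUT blastocyst reached the lowest HET or WT value (log2 change −2.65 ± 0.49 SE, adjusted p = 0.022). The 3 MUT libraries held 31 Lsm11 reads in all, and the call was lost without MUT 1 (adjusted p = 0.0577), WT 2 (0.052) or WT 5 (0.054), with a pseudocount of 0.1 (0.0545), with no filter on low values (0.0612), with the replicate block (0.0699) and with voom on reads (0.104). Lsm4 was at 597, 511 and 486 in MUT, at 656, 646, 766, 747 and 745 in HET, and at 808, 846, 728, 712 and 739 in WT. Its MUT values lay below all others, and it did not pass (−0.53 ± 0.12, adjusted p = 0.0541). Sf3b5 was higher in each MUT library than in any other, at 2621, 2132 and 2409, against 1450 to 1863 in WT (0.47 ± 0.12, adjusted p = 0.0724). MUT and WT ranges were apart for 6 genes lower and 3 higher (5.19% and 4.58% of all genes), and the median change was −0.083, against −0.084 over all genes. Epiblast markers summed to 568 to 1141 reads per M in MUT and 1162 to 1940 in WT. All 8 of these markers had changes below 0 (median log2 change −1.16), and limma called 2 lower. Their part in the values of the splicing genes was not tested. Snrpa1 was at 93.4 in MUT 1, the library with few detected genes, and at 553 and 514 in MUT 2 and MUT 3, against 338 to 547 in WT.

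In Taf5 E3.5 MUT, limma called 0 of 46 tested genes (0.111% of all genes were called), with 5 at an unadjusted p under 0.05 and 0 called by voom. Over all genes in Taf5 E3.5 MUT, 882 of 10843 had an unadjusted limma p under 0.05. Lsm14b was too low to be tested there and in Taf13 E3.5. Lsm11 was at FPKM 0.281, 0, 7.23 and 4.99 in MUT and at 20.6, 32.9 and 15.7 in WT (log2 change −3.03 ± 0.84 SE, adjusted p = 0.452). Lsm4 was at 427, 446, 483 and 531 in MUT and at 593, 662 and 635 in WT (−0.42 ± 0.14, adjusted p = 0.491). In both genes MUT lay below WT without overlap, and neither passed. Such ranges were apart for 3 genes lower in MUT (5.26% of all genes). The median change was −0.014, against −0.035 over all genes.

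In Taf13 E3.5 MUT, 0 of 46 genes were called by limma (0.134% of all genes were), with 1 at an unadjusted p under 0.05 and 0 called by voom. Over all genes, 1118 of 11975 had an unadjusted limma p under 0.05. Lsm4 was at FPKM 574, 660 and 618 in MUT and at 773, 782, 627 and 733 in WT, which overlap (log2 change −0.24, adjusted p = 0.611). Lsm7 (−0.29, adjusted p = 0.506), Prpf31 (−0.32, adjusted p = 0.552) and Snrpd2 (0.29, adjusted p = 0.575) had the smallest p-values. HET blastocysts had 0 called by limma in both lines (0% of all genes were, and 0 by voom), with 0 of the 47 Taf12 and 4 of the 46 Taf13 genes at an unadjusted p under 0.05. Over all genes, 447 of 12751 in Taf12 HET and 519 of 11975 in Taf13 HET were under that unadjusted limma p. Among the splicing genes in HET blastocysts, Prpf31 in Taf13 HET had the smallest p (−0.515, adjusted p = 0.999).

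Whether an effect differed between stages was tested as a contrast of effects, each against its own WT. Between Taf12 OG and Taf12 E3.5, 6 of the 47 genes differed, 5 more negative in OG (10.6%, against 5.6% of all genes) and 1 more positive (2.13%, against 5.41%). Lsm4 differed by −1.465 on the log2 scale (SE 0.14, adjusted p = 1.13e-06), its effect being −1.995 in OG and −0.53 at E3.5. Snrpd1 differed by −1.095 (adjusted p = 0.000464), Lsm3 by −0.97 (adjusted p = 0.0097), Sf3b2 by −0.715 (adjusted p = 0.00971) and Snrpe by −0.695 (adjusted p = 0.0332). The Snrpe call was lost without E3.5 MUT 1 or 3, E3.5 WT 1, 4 or 5, OG MUT 1 or 3, or OG WT 1 or 3 (adjusted p of 0.0516 to 0.0827), and with no filter on low values (adjusted p = 0.0641). Lsm11 differed by 2.33 (SE 0.64, adjusted p = 0.0219), its effect being −0.32 in OG and −2.65 at E3.5. That call was lost without E3.5 MUT 1 (adjusted p = 0.0718) or OG WT 2 (adjusted p = 0.051). Between Taf13 E6.5 and Taf13 E3.5, Snrpa1 was the gene that differed (−1.48, SE 0.30, adjusted p = 0.00565; 2.13% against 4.45% of all genes), and it did not pass without E6.5 MUT 1 (−1.19, adjusted p = 0.0825). Lsm4 did not pass there (−0.62, adjusted p = 0.323). Between lines at E3.5, limma called 0 of the 47 genes in any of the 3 contrasts, where 0.0147% (Taf12 minus Taf5), 0.00768% (Taf13 minus Taf5) and 0.0359% (Taf12 minus Taf13) of all genes were called. At an unadjusted p under 0.05 there were 0, 4 and 4 of them in the same order. Over all genes the counts under that p were 1027 of 13576, 800 of 13014 and 1284 of 13945.

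Set side by side, Taf12 OG and Taf13 E6.5 come from separate libraries and separate WT embryos. Snrpa1, Lsm2, Lsm6 and Sf3a3 were called lower in MUT in both, 4 of the 19 genes lower in OG and 4 of the 5 lower at E6.5. At E6.5 none of these 4 calls held without MUT 1, and that of Sf3a3 held in 11 of 24 alternatives. In OG the Sf3a3 ranges overlapped, at FPKM 52 to 113 in MUT and 105 to 138 in WT. Its OG call was not followed in the alternatives. Changes were below 0 for 33 of the 47 genes in OG, for 37 at E6.5 and for 28 in both. Over all genes tested, 52.7% were below 0 in OG and 48.3% at E6.5. Called lower were 19.9% of all genes in OG and 6.4% at E6.5. The shares of all genes called lower in both, or below 0 in both, were not counted. Lsm10, Sf3b5 and Sf3b6, higher in Taf12 OG MUT, had changes of −0.46, −0.65 and −0.51 in Taf13 E6.5 MUT, none past the test there. Without WT 3 and HET 8 these were −0.17, −0.47 and −0.24.

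**Figure D5:**
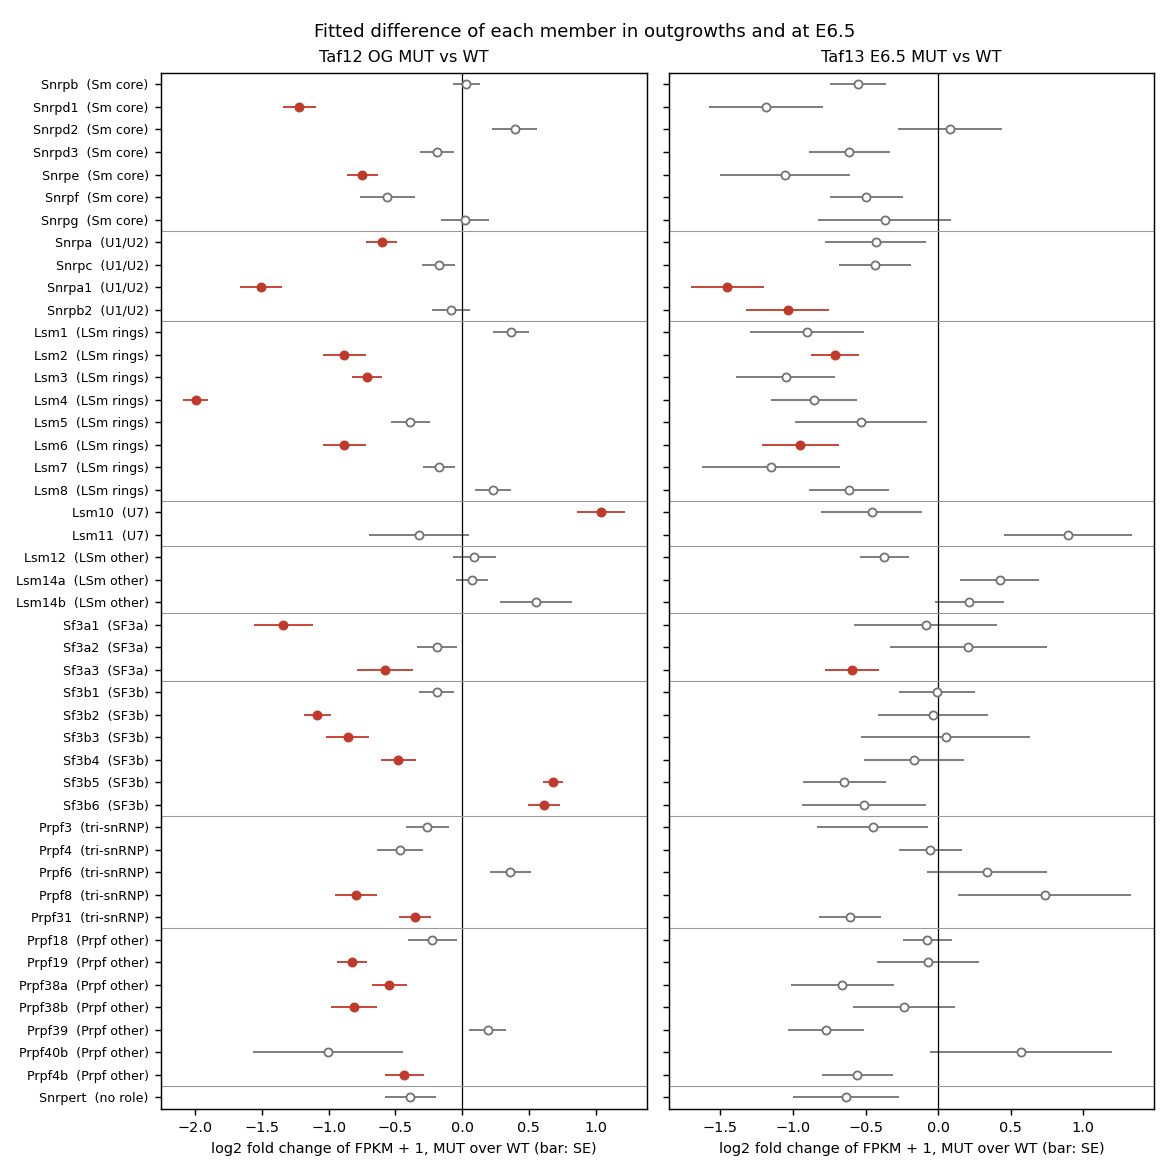
Log2 change of 46 of the 47 genes in MUT against WT in Taf12 OG and in Taf13 E6.5, genes grouped by role, with bars for 1 SE. Filled red points passed the adjusted p of 0.05 and open grey points did not, and the Taf12 OG panel holds 22 filled points against 5 in the Taf13 E6.5 panel.

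The authors' deposited table, which sets MUT against WT in Taf5 and against WT and HET together in the other lines, holds the same genes. In the authors' deposited table, 22 of the 47 genes were lower and 7 higher at an adjusted p under 0.05 in Taf12 OG, and 19 lower and 0 higher in Taf13 E6.5 (39.9% and 23.5% of all genes were under 0.05 in either direction). Of all 16731 genes there in Taf12 OG, 3372 were lower and 3299 higher. Of all 17514 in Taf13 E6.5, 2330 were lower and 1778 higher. For the blastocysts, the authors' deposited table has 4 lower and 3 higher in Taf12 E3.5 (9.71% of all genes were under 0.05 in either direction), 1 of the 47 in Taf5 E3.5 (1.9%) and 0 in Taf13 E3.5 (4.35%). Of all 13330 genes there in Taf12 E3.5, 863 were lower and 431 higher. For Lsm4 the authors' deposited table gives a log2 change of −1.97 ± 0.09 SE (adjusted p = 8.54e-105) in Taf12 OG, −0.90 ± 0.27 (adjusted p = 0.00584) in Taf13 E6.5, −0.48 ± 0.10 (adjusted p = 0.000241) in Taf12 E3.5, −0.42 ± 0.14 (adjusted p = 0.0846) in Taf5 E3.5 and −0.21 ± 0.11 (adjusted p = 0.337) in Taf13 E3.5. For Lsm11 in Taf12 E3.5 the authors' deposited table gives −3.36 ± 0.61 (adjusted p = 5.05e-06).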

How the data were processed

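RNA of single mouse embryos was sequenced as 76 base paired-end reads from low-input libraries, per the labels' protocols. The submitters' processing notes name the genome build GRCm39 and the tools DESeq2 1.36.0, FastQC 0.11.9, R 4.2.1, STAR 2.7.6a and Trimmomatic 0.39, with no role or order, per the labels. How and by which program reads were assigned to genes, and with which strand setting, is not given in the sources used here. FPKM, as deposited by the authors, covers 56557 genes in 57 libraries. Each line and stage set may have been normalized on its own, so effects were set within a set. A second deposited table holds the authors' log2 fold change, its standard error, the p-value and the adjusted p-value of each gene. FPKM values were whole multiples of the value of 1 read: of the values up to 500 reads in 37343 detected genes, 100% were whole reads within 0.05.

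Genes that reached FPKM 1 in a number of libraries equal to the size of the set's smallest group were tested on log2(FPKM + 1) with limma 3.58.1 in R 4.3.3, with a mean-variance trend and robust moderation. Each line and stage was fitted once, with all its libraries. Tests were two-sided, and genes were called where p, adjusted over all genes tested by Benjamini and Hochberg, was under 0.05. Fold changes are on the log2(FPKM + 1) scale and understate changes of low genes. Effects in different sets were compared as contrasts, each against its own WT. The fit was tested on simulated data. Alternatives were pseudocounts of 0.1 and 5, no filter, a mean FPKM of 5 or more, median-of-ratios rescaling, voom on recovered reads, WT and HET together as control, a replicate block and leaving out each library. One alternative, without Taf13 E6.5 WT 3 and HET 8, was chosen after seeing the data. Tables and figures used Python 3.11.15, pandas 2.3.3, numpy 2.4.6 and matplotlib 3.10.9.

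The genes, role lists and marker lists were chosen with earlier results of these data known. Named with full values were Lsm4, the targeted genes, up to 14 called genes per direction and comparison by smallest p, the 3 with the smallest p where fewer than 3 were called, and up to 3 called genes per related list. Other members are named to account for the set or after their values were seen. One member is counted in the totals and is not reported here by itself.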

Additional observations from a re-analysis of the deposited data

Results flagged for a closer look

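In groups of 4 to 10 libraries, 6 of 70 sets of values held a library far from the others by Dixon's criterion, which chance meets in about 1 of 20. In Taf12 OG these were Lsm4 in WT 2 (FPKM 911), Sf3b2 in MUT 2 (1381) and Sf3b2 in WT 2 (2889), and the ranges of MUT and WT stayed apart in both genes. Lsm10 in Taf13 E3.5 WT 2 was at 115. In Taf13 E6.5, Lsm2 (510) and Lsm4 (1687) were high in HET 8.

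A test of the difference between stages picked out Taf12 effects in Lsm4 (−1.465 on the log2 scale, OG minus E3.5), Snrpd1 (−1.095), Lsm3 (−0.97), Sf3b2 (−0.715), Snrpe (−0.695) and Lsm11 (2.33), and the Taf13 effect in Snrpa1 (−1.48, E6.5 minus E3.5). Of these, Snrpe, Lsm11 and Snrpa1 lost their call when some single libraries were left out.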

How the results depend on the processing

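Of 2038 alternative values for 107 results, 1849 kept their direction and side of the threshold or stayed within the limits set for them. All 17 Taf12 OG genes named with full values kept call and direction in 19 alternatives. The calls of Prpf38a, Sf3b4, Prpf4b, Prpf31 and Sf3a3 in Taf12 OG were not followed in the alternatives. Genes called over all tested changed as follows. Taf5 E3.5 (12) gave 6 at pseudocount 5, 4 without a filter, 4 at mean FPKM 5, 0 with the replicate block and 0 with voom, and 3 to 10 leaving out libraries. Taf12 E3.5 MUT (184) gave 67 without a filter, 48 with the block and 441 with WT and HET together, and 78 to 226 leaving out libraries. Taf12 OG HET (4) gave 1 at mean FPKM 5, 0 with the block and 0 with voom, and 0 to 7 leaving out libraries. Taf12 and Taf13 E3.5 HET (0) gave up to 1 and 2 leaving out libraries, and Taf13 E6.5 HET (0) gave 2 without a filter. Taf13 E3.5 MUT (16) gave 5 at pseudocount 5, 8 without a filter, 0 with the block, 1 with voom and 30 with WT and HET together, and 9 to 26 leaving out libraries. Taf13 E6.5 MUT (1880) gave 584 with the block and 3348 with WT and HET together, and 554 to 2348 leaving out libraries. Contrasts at E3.5 gave 7 at pseudocount 0.1 and 2 to 18 leaving out libraries (Taf12 minus Taf5, 2), 6 at pseudocount 0.1, 3 without a filter and 0 to 7 leaving out libraries (Taf13 minus Taf5, 1), and 9 at pseudocount 0.1 and 2 to 26 leaving out libraries (Taf12 minus Taf13, 5). Taf13 E6.5 minus E3.5 (722) gave 314 to 887.

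Members called in Taf12 E3.5 MUT (1) were 0 without a filter, 2 at mean FPKM 5, 0 with the block, 0 with voom, 4 with WT and HET together and 0 to 1 leaving out libraries. In Taf13 E6.5 MUT (5) they were 2 without a filter, 1 with the block, 14 with WT and HET together, 10 without WT 3 and HET 8, and 0 to 9 leaving out libraries. The count over all genes without WT 3 and HET 8 is not given here. In Taf12 OG MUT (22) members called were 19 to 22 leaving out libraries, in the Taf12 stage contrast (6) 5 to 7 and in the Taf13 stage contrast (1) 0 to 1. Signs turned for HET effects near 0: at E6.5 Lsm2 (−0.003) and Lsm4 (−0.28) with the block, Lsm4 without HET 6 (−0.002), HET 8 (−0.074), WT 1 (−0.079) or WT 4 (−0.075; over all left-out libraries −0.079 to 0.18), and at Taf13 E3.5 Lsm4 without HET 4 (0.016; −0.127 to 0.016 over all). The causes of these shifts were not tested. Replicate numbers were not taken to pair the embryos in the main fit. Correlations of same-numbered deviations ran from −0.436 to 0.383. They passed 0.1 in 2 of 5 pairs of Taf12 E3.5 HET and WT and 1 of 3 of Taf12 E3.5 MUT and WT. In Taf13 E6.5 HET and WT, 2 of 4 did, and in the other pairs of groups none did. So few pairs cannot show whether same-numbered embryos are related.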

Other observations

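Lists of partners outside the spliceosome gave few calls. Of 8 decapping partners of the LSm1 ring, 1 was lower and 1 higher in Taf12 OG MUT, where 19.9% of all genes tested were lower and 18% higher. Xrn1, the exonuclease that degrades decapped RNA, averaged FPKM 66 ± 3.65 in MUT and 34.2 ± 10.1 in WT (SD, n = 4 each; log2 change 0.98, limma adjusted p = 0.016). In Taf12 E3.5 MUT, Dcp2, the decapping enzyme, averaged 1.08 ± 1.07 (n = 3), against 10.5 ± 4.12 in WT (n = 5; −2.54, limma adjusted p = 0.017). Of 7 histone pre-mRNA processing genes, 1 was lower in Taf12 OG MUT, Cstf2 at 19.8 ± 4.17 in MUT and 44 ± 4.58 in WT (−1.13, limma adjusted p = 0.000809).

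In Taf12 E3.5 MUT, where Lsm11 was the member called, 3 further genes of the related lists were called, beside Dcp2 and 2 epiblast markers (1.44% of all genes tested were). Coil, which encodes the Cajal body protein coilin, averaged FPKM 22000 ± 5960 in MUT and 11200 ± 1350 in WT (0.94, limma adjusted p = 0.0288). Hnrnpdl averaged 620 ± 211 in MUT and 1470 ± 335 in WT (−1.26, limma adjusted p = 0.0296), and Snw1, a factor of the active spliceosome, 135 ± 24.7 in MUT and 242 ± 37.7 in WT (−0.85, limma adjusted p = 0.0396).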
